A study of Mus musculus with 15 samples.

Results

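Sox9-GFP+ cells of the mouse pancreas were compared between the embryonic stages e15.5 and e10.5 across all functions of their transcriptome. The comparison uses 6 of the 15 arrays of the study, the 3 with Sox9-GFP+ cells at e15.5 and the 3 with Sox9-GFP+ cells at e10.5, chosen by their sample titles. All 6 came from embryos of Sox9-EGFP males and wild-type CD1 females, so the cells of both stages carried the same reporter on a CD1 background, and the day on which a plug was seen counted as e0.5 from noon. The pancreas was dissected and dissociated with collagenase B, with trypsin added where needed, and only cells with high GFP were sorted. Several animals were pooled for each sort, so each array is 1 pool, the p-values measure the spread between such pools, and the labels do not say which pools received trypsin. GFP protein can outlast the activity of the gene that drives it, and fewer cells of a type cannot be told apart from less RNA per cell in such samples. The other arrays of the study, from Ngn3-GFP+ cells at e15.5 and from Sox9-GFP+ and GFP- cells at postnatal day 23, entered the estimate of the spread and are quoted only where their level is set beside that of a gene described here.

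Sox9 is a transcription factor that marks and maintains the epithelial progenitors of the embryonic pancreas. In the early bud these progenitors can still form acinar, ductal and endocrine cells. During the later wave of differentiation the tips of the branching epithelium turn to acinar cells, which make digestive enzymes, while the Sox9-positive trunk forms ducts and, through Neurog3, endocrine cells.

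The labelled cell type was borne out by its markers at both stages. Sox9 itself stood at log2 12.12, 11.93 and 11.85 at e10.5 and 12.14, 12.10 and 12.11 at e15.5 (values are log2 of intensity plus 16, one per array), and it did not pass the test (0.15 ± 0.32, adjusted p = 0.741). The pancreatic epithelial markers Pdx1 and Epcam lay between 11.38 and 11.88 on all 6 arrays, and the mean of 8 such markers ran from 10.82 to 11.25 at e10.5 and from 11.44 to 11.52 at e15.5. Neurog3, the factor that starts the endocrine programme, stood at 10.24, 9.9999 and 9.23 at e10.5 and 12.12, 11.82 and 11.66 at e15.5, and it was higher on every array of the later stage (2.04 ± 0.23, adjusted p = 3.23e-05). Markers of leukocytes and endothelium were at or near the 30th percentile of the table, log2 6.83. Those of some other tissues lay higher. Their list means over the 6 arrays were 8.08 to 8.87 for mesenchyme and 7.66 to 8.30 for neural crest and neurons. For gut they were 7.41 to 7.96 and for liver 9.14 to 11.37. The 6 leukocyte markers lay between 5.61 (Cd53) and 7.48 (Tyrobp) over the 6 arrays, and their mean between 6.46 and 6.83. The 5 endothelial markers lay between 5.995 (Kdr) and 7.31 (Esam), with a mean of 6.47 to 6.79, and of these markers Tie1 was called lower, by less than 2-fold. Embryonic globin Hbb-y was uneven within both stages, at 10.48, 11.20 and 6.05 at e10.5 and 9.98, 5.93 and 6.35 at e15.5, and was not called (-1.83 ± 1.103, adjusted p = 0.22). Hba-x, another embryonic globin, stood at 8.67, 8.74 and 7.06 at e10.5 and 7.25, 6.54 and 6.56 at e15.5 and was called lower (-1.38 ± 0.34, adjusted p = 0.0115), a call that was lost when any 1 of 3 single arrays was left out (adjusted p up to 0.0587, without e10.5 replicate 2) and under 1 other scaling. Of 11 red blood cell genes 5 were called lower and 1 higher, 1 of each by 2-fold, and their part in the results below was not tested.

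Of 16883 genes tested, limma called 4754 at a Benjamini-Hochberg adjusted p below 0.05, which is 28.2% of them. Of these, 2060 were higher (12.2%) and 2694 lower (16%) at e15.5. The changes of at least 2-fold were far from symmetric: 690 genes rose that much (4.09%) and 179 fell that much (1.06%). Differences are given as e15.5 minus e10.5 on the log2 scale with the standard error of the fit, and a gene counted below as changed 2-fold was called and differed by at least that much. Each list below is read against these percentages. Among the 690 rises, 183 were at least 4-fold, 56 at least 8-fold and 15 at least 16-fold, and among the 179 falls the counts were 34, 11 and 4. In 162 of the rises all 3 arrays at e10.5 lay at or below the 30th percentile, and in 40 of the falls all 3 arrays at e15.5 did. The 3 arrays of one stage did not overlap the 3 of the other in 57.3% of all tested genes. The same held for 687 of the rises and 177 of the falls. Where such a separation is given for a named gene below, it is read against these shares.

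Falls of less than 2-fold were mostly of dim genes. Of these 2515 genes, 55.4% had even their higher stage mean below the median of the table, against 5.8% of the rises of less than 2-fold. The share was 6.7% for the falls and 8.3% for the rises of at least 2-fold. The direction of such small changes also moved with the scaling between arrays: 43.3% of the called genes rose as deposited, 28.1% when each array was centred on the median of its tested genes and 73.7% when it was centred on the median of the whole table, and the median difference of all tested genes was -0.05, -0.15 and 0.11 in these settings. Hox genes belong here, with 19 of 26 called lower and 0 lower by 2-fold. The lists are therefore described by their changes of at least 2-fold.

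The arrays of a stage were not ordered evenly. Replicate 1 at e15.5 held the lowest of the 3 values in 555 of the 690 genes that rose at least 2-fold. Replicate 3 at e15.5 held the highest in 454 of them. At e10.5 replicate 1 held the highest in 386 and replicate 3 the lowest in 378. The genes risen at least 2-fold numbered 775 without replicate 1 at e15.5 and 775 without replicate 1 at e10.5. Over all 6 arrays left out one at a time, the genes risen 2-fold numbered 564 to 775 and those fallen 2-fold 158 to 190. The number of called genes of any size depended more on single arrays, with 2179 without replicate 2 and 1896 without replicate 3 at e10.5, and 2168 without replicate 2 and 1840 without replicate 3 at e15.5. Arrays of the same stage correlated at 0.9695 to 0.9878 at e10.5 and 0.9875 to 0.9947 at e15.5 over the tested genes, and arrays of different stages at 0.894 to 0.953.

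**Figure D1:**
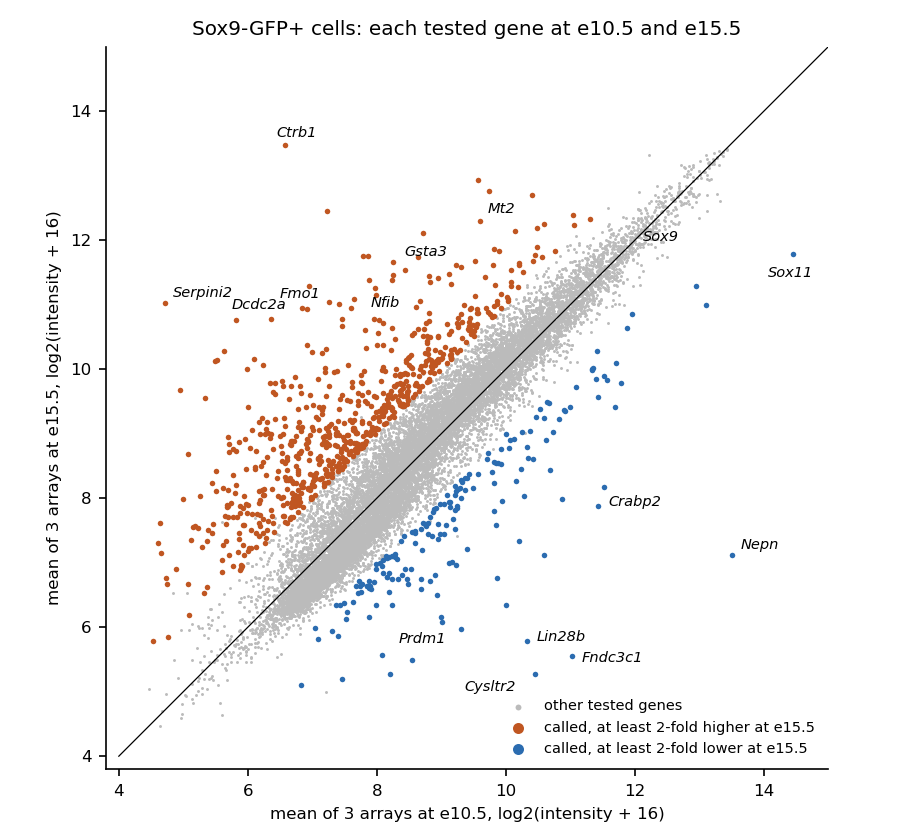
Mean log2(intensity + 16) of the 3 arrays at e10.5 (horizontal axis) against that of the 3 arrays at e15.5 (vertical axis) for each of 16883 tested genes, with the line of equal values. The 690 genes called and at least 2-fold higher at e15.5 (orange) spread far above the line, while the 179 called and at least 2-fold lower (blue) are fewer. Named genes are described in the text, and Sox9 lies close to the line.

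Digestive enzyme genes were among the largest gains. Of 26 acinar digestive enzymes tested, 20 rose at least 2-fold (76.9% against 4.09% of all genes) and 0 fell, with a median log2 difference of 2.47. Ctrb1, a chymotrypsinogen, stood at 6.33, 6.04 and 7.34 at e10.5 and 13.15, 13.57 and 13.69 at e15.5, with more than 5 log2 units between the groups (6.90 ± 0.24, adjusted p = 2.87e-10). Serpini2, a serine protease inhibitor of acinar cells, stood at 4.36, 4.76 and 5.02 at e10.5 and 10.59, 11.01 and 11.48 at e15.5 (6.31 ± 0.23, adjusted p = 4.26e-10). Pancreatic lipase-related Pnliprp1 stood at 7.05, 7.42 and 7.23 at e10.5 and 11.75, 12.73 and 12.87 at e15.5 (5.22 ± 0.22, adjusted p = 1.86e-09). No e10.5 array came near an e15.5 array in these 3 genes. For other enzymes the e15.5 pools were far apart. The procarboxypeptidase gene Cpb1 stood at 4.82, 4.96 and 5.08 at e10.5 and 7.53, 10.82 and 10.69 at e15.5 (4.73 ± 0.69, adjusted p = 0.000354). The trypsinogen gene Prss3 stood at 5.02, 4.89 and 5.29 at e10.5 and 7.07, 9.27 and 9.73 at e15.5 (3.62 ± 0.47, adjusted p = 0.000123). In both, replicate 1 at e15.5 lay more than 2 log2 units below its companions and still above every e10.5 array. Bhlha15, which builds the secretory apparatus, rose (2.88 ± 0.21, adjusted p = 6.77e-07), and so did Rbpjl, the acinar partner of Ptf1a (2.51 ± 0.27, adjusted p = 2.72e-05). Ptf1a itself was not called (0.48 ± 0.31, adjusted p = 0.243).

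**Figure D2:**
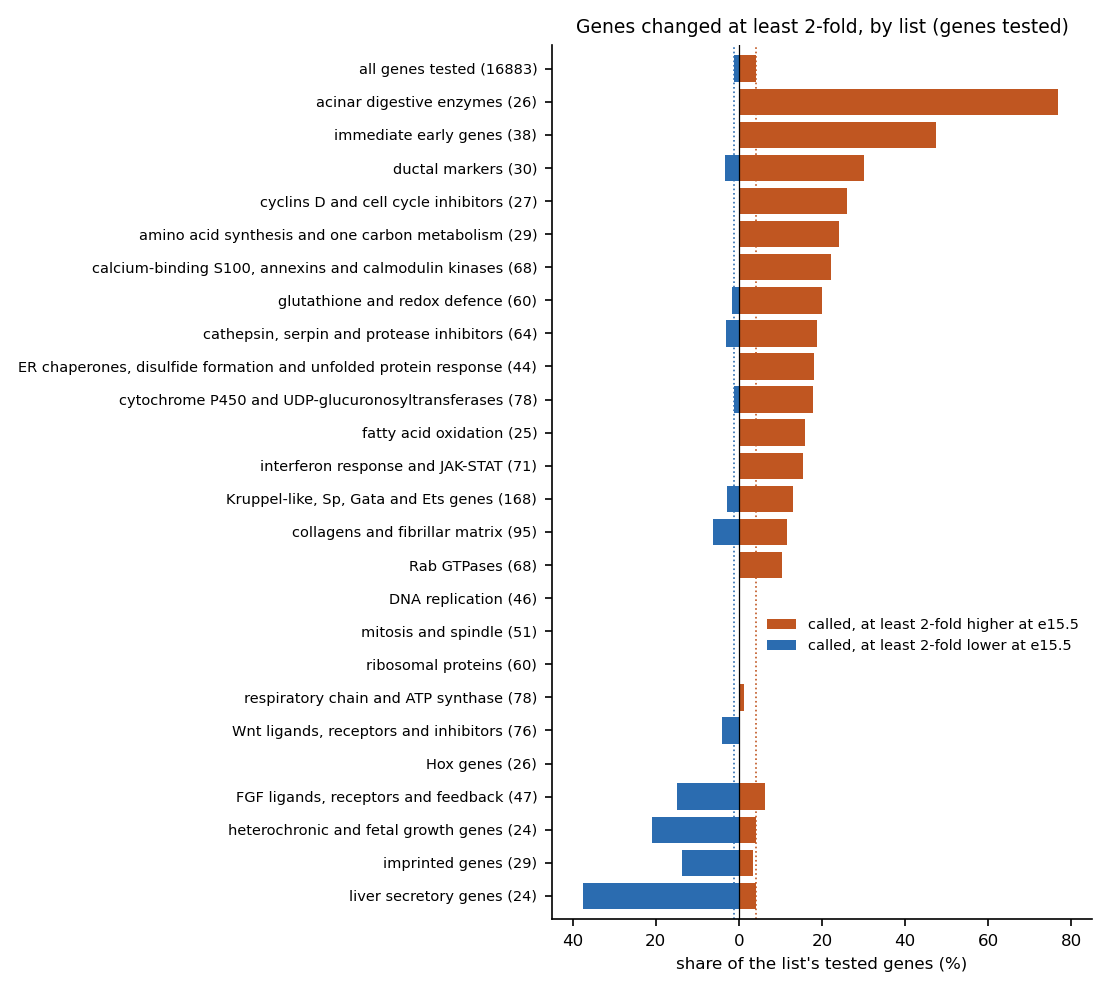
Share of each list's tested genes (number in brackets) that were called and at least 2-fold higher (orange, to the right) or lower (blue, to the left) at e15.5. Dotted lines mark the shares over all 16883 genes, 4.09% and 1.06%. Acinar enzymes and immediate early genes reach furthest to the right, liver secretory genes furthest to the left, and the DNA replication, mitosis and ribosomal protein lists hold no change of 2-fold.

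Many genes of protein export were higher. Of 44 endoplasmic reticulum chaperone and folding genes 24 were called higher and 0 lower, 8 of them by at least 2-fold (18.2%). Without replicate 1 at e15.5, the array that was lowest in most risen genes, 13 rose 2-fold. Of 32 genes of signal peptide recognition, translocation and processing 20 were called higher, 0 of them 2-fold, with a median difference of 0.46. Of 50 coat, Golgi and vesicle transport genes 24 were called higher, 5 by at least 2-fold, and the 24 became 12 to 32 under the other scalings. Members used by few tissues were among the 2-fold rises. Pdia2, the disulfide isomerase of the pancreas, stood at 5.72, 5.57 and 5.85 at e10.5 and 7.23, 9.37 and 9.94 at e15.5 (3.13 ± 0.53, adjusted p = 0.00107). Tmed6, of a family of cargo receptors of the early secretory route, stood at 6.62, 5.92 and 6.16 at e10.5 and 9.62, 10.12 and 10.47 at e15.5 (3.84 ± 0.23, adjusted p = 1.26e-07). Fkbp11, a folding enzyme of secretory cells, stood at 6.96, 6.86 and 6.42 at e10.5 and 8.34, 8.95 and 9.62 at e15.5 (2.22 ± 0.28, adjusted p = 9.27e-05). The stages did not overlap in any of the 3. The housekeeping chaperones Hspa5 (0.24 ± 0.16, adjusted p = 0.259) and Hsp90b1 (0.08 ± 0.11, adjusted p = 0.598) did not pass the test. Erp27, which binds folding enzymes in the endoplasmic reticulum, rose by 3.01, and Creb3l1, a membrane-bound transcription factor of secretory cells, by 1.95. Rab GTPases direct vesicles to their targets, and 7 of 68 Rab genes were at least 2-fold higher (10.3%), among them Rab3d, a Rab of zymogen granules (1.58 ± 0.30, adjusted p = 0.00267). Rab32, which serves lysosome-related organelles, stood at 6.38, 6.03 and 6.28 at e10.5 and 8.58, 8.55 and 8.54 at e15.5 (2.33 ± 0.15, adjusted p = 2.22e-07), with 3 nearly equal values at e15.5.

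Nuclear factor I genes rose together. Nfia stood at 6.25, 6.43 and 5.98 at e10.5 and 9.03, 9.27 and 9.43 at e15.5 (3.02 ± 0.19, adjusted p = 1.79e-07). Nfib stood at 7.70, 7.66 and 7.60 at e10.5 and 10.83, 11.16 and 11.28 at e15.5 (3.44 ± 0.21, adjusted p = 1.83e-07). Nfix stood at 6.597, 6.53 and 6.13 at e10.5 and 9.45, 9.88 and 10.02 at e15.5 (3.37 ± 0.28, adjusted p = 2.25e-06). Their proteins bind the same palindromic site on DNA, and in each gene the arrays of one stage lay within 1 log2 unit of each other while the stages were more than 2 units apart. Nfic, the fourth member, rose less, from a stage mean of 7.49 to 8.57 (1.07 ± 0.21, adjusted p = 0.00284). At postnatal day 23 the Sox9-GFP+ means were 10.74 for Nfia, 12.06 for Nfib and 11.92 for Nfix. The palindromic NFI motif TGGCNNNNNGCCA was present in 13 of the 540 promoters available for genes that rose at least 2-fold (2.41%). It was in 138 of the 13292 promoters available for all tested genes (1.04%). Of the 137 promoters of genes that fell at least 2-fold, 1 held this motif (0.73%). Its part in the rises was not tested. These shares describe letters in windows of equal length, searched on both strands. Each window runs from before the annotated start to shortly after it.

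Among 168 Kruppel-like, Sp, Gata, Ets and related genes, 22 rose at least 2-fold (13.1%) and 5 fell (2.98%). The Ets factors of epithelia were among the rises. Ehf stood at 7.42, 7.43 and 7.39 at e10.5 and 10.70, 11.08 and 11.25 at e15.5 (3.59 ± 0.35, adjusted p = 8.98e-06). Elf5 stood at 6.77, 6.87 and 6.52 at e10.5 and 8.59, 8.97 and 9.12 at e15.5 (2.17 ± 0.24, adjusted p = 2.56e-05). In both genes the stages were more than 1 log2 unit apart. Elf3, the third of this subgroup, was also higher (1.33 ± 0.33, adjusted p = 0.011), although its adjusted p was 0.0516 without replicate 3 at e10.5. Nuclear receptors split by member. Of 51 tested, 6 rose and 3 fell 2-fold. Nr1h4, the bile acid receptor, stood at 6.18, 5.99 and 6.16 at e10.5 and 7.86, 8.73 and 8.77 at e15.5 (2.34 ± 0.30, adjusted p = 0.000102). Vdr, the vitamin D receptor, stood at 7.31, 7.28 and 7.60 at e10.5 and 9.17, 9.25 and 9.16 at e15.5 (1.80 ± 0.18, adjusted p = 1e-05). Nr2f2, an orphan receptor of embryonic tissue, went from 10.87, 10.78 and 10.53 at e10.5 to 8.83, 9.004 and 9.25 at e15.5 (-1.70 ± 0.39, adjusted p = 0.00726). None of these groups overlapped. Nr3c1, the glucocorticoid receptor, rose by 2.21 ± 0.15 (adjusted p = 3.72e-07). Bcl6 and Bcl11a, zinc finger repressors, rose by 1.91 and 1.57, and Stat6, which carries interleukin signals to the nucleus, by 1.70.

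Several factors of the early embryo went down. Prdm1, a zinc finger repressor used in germ cells and early endoderm, stood at 9.45, 9.30 and 9.16 at e10.5 and 5.89, 5.85 and 6.20 at e15.5 (-3.33 ± 0.18, adjusted p = 4.03e-08), which is below the 30th percentile on every e15.5 array. Sox11, a factor of immature tissues, went from 14.57, 14.45 and 14.35 at e10.5 to 12.27, 11.67 and 11.43 at e15.5 (-2.67 ± 0.35, adjusted p = 0.000141). It stayed far above the 30th percentile, and its relative Sox4 was not called (0.12 ± 0.26, adjusted p = 0.753). Sall4, a stem cell factor, stood at 11.001, 11.004 and 10.73 at e10.5 and 9.34, 9.47 and 9.31 at e15.5 (-1.54 ± 0.23, adjusted p = 0.000377). Zfp462, a large zinc finger protein, stood at 10.30, 10.23 and 10.19 at e10.5 and 8.59, 8.42 and 8.33 at e15.5 (-1.79 ± 0.23, adjusted p = 9.25e-05). The stages were more than 1 log2 unit apart in both. Zbtb16 fell by 2.15, Foxf1, better known from gut mesenchyme, by 1.81, and Onecut2, a partner of Onecut1 in endoderm, by 3.10. Onecut1 was not called (-0.04 ± 0.19, adjusted p = 0.88), nor were the endodermal factors Foxa2 (0.07 ± 0.20, adjusted p = 0.819) and Hnf4a (-0.15 ± 0.17, adjusted p = 0.506).

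**Figure D3:**
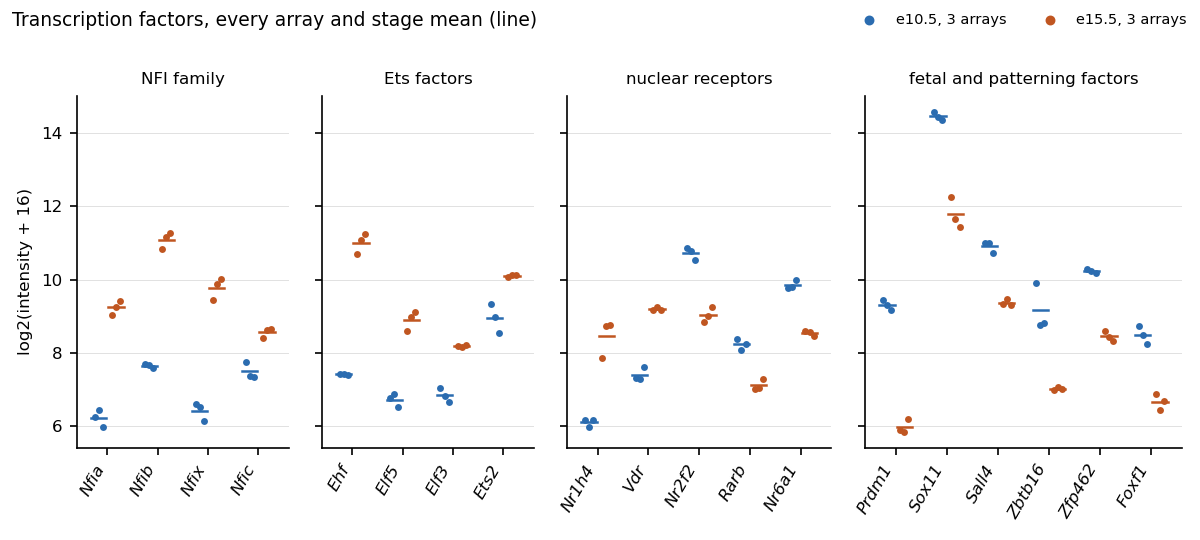
Log2(intensity + 16) of transcription factor genes on each array at e10.5 (blue) and e15.5 (orange), 3 points per stage with a line at their mean. NFI and Ets factors lie higher at e15.5 in every array, nuclear receptors go both ways, and Prdm1, Sox11, Sall4, Zbtb16, Zfp462 and Foxf1 lie lower.

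Several genes that mark fetal growth fell. Of 24 heterochronic and fetal growth genes 13 were called lower, 5 of them at least 2-fold (20.8% against 1.06%), and 2 were called higher, 1 of them by 2-fold. The count called lower was 7 to 14 under the other scalings. Lin28b, an RNA-binding protein that blocks the maturation of let-7 microRNAs, stood at 10.66, 10.20 and 10.12 at e10.5 and 5.82, 5.74 and 5.81 at e15.5 (-4.53 ± 0.14, adjusted p = 1.81e-10). The groups are more than 4 log2 units apart, and the e15.5 values are below the 30th percentile. Its paralogue Lin28a was dim, at 7.67, 7.92 and 7.57 at e10.5 and 7.15, 7.18 and 7.20 at e15.5 (-0.54 ± 0.14, adjusted p = 0.0138). Prtg, a surface protein of the early embryo, went from 10.61, 10.51 and 10.69 at e10.5 to 7.31, 7.15 and 6.93 at e15.5 (-3.47 ± 0.22, adjusted p = 2.36e-07). Igf2bp1, which binds and protects fetal messenger RNAs, stood at 11.86, 11.69 and 11.57 at e10.5 and 10.41, 9.92 and 9.97 at e15.5 (-1.61 ± 0.34, adjusted p = 0.00484), while Igf2bp3 (-0.59 ± 0.17, adjusted p = 0.0236) and Hmga2, a chromatin protein of fetal cells (-0.66 ± 0.18, adjusted p = 0.0166), fell by less than 2-fold. Arid3b, a DNA-binding protein, fell by 1.99, and Nr6a1, a nuclear receptor of embryonic cells, by 1.31.

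The let-7 genes themselves could not be followed well, because the RNA was copied from its poly(A)+ fraction and mature microRNAs were not measured. Of 171 genes tested under microRNA names, 3 were called higher and 60 lower, 2 and 3 of them by 2-fold. The 2 rises include Mir100hg, a host transcript described below. The 2-fold falls numbered 0 to 6 without single arrays. The 60 became 23 to 94 under the other scalings, so no direction is read from it. Mir100hg, the long noncoding transcript whose span on chromosome 9 (GRCm38.p6, 41376526 to 41615185) holds the hairpins of let-7a-2, miR-100 and miR-125b-1, stood at 8.54, 8.69 and 8.79 at e10.5 and 9.82, 10.01 and 10.18 at e15.5 (1.33 ± 0.38, adjusted p = 0.0212). It was higher on every e15.5 array, and its adjusted p rose to 0.0801 without replicate 3 at e15.5 and it lost the call without any of 4 of the 6 arrays. The mature sequences are shown because Lin28b acts on let-7, with the seed, bases 2 to 8, in capitals, as RefSeq lists them, mature let-7a under its first locus.
let-7a-5p: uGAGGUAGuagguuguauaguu
miR-100-5p: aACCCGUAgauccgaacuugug
miR-125b-5p: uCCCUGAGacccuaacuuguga

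Igf1 rose, while Igf2, the fetal growth factor, stood at 12.04, 11.84 and 11.64 at e10.5 and 11.26, 10.70 and 11.04 at e15.5 and was not called (-0.84 ± 0.41, adjusted p = 0.132). The e15.5 values of Igf2 lay below those at e10.5, but 57.3% of all tested genes had stages that did not overlap. Igf1 stood at 7.89, 8.06 and 8.13 at e10.5 and 10.46, 10.47 and 10.77 at e15.5 (2.54 ± 0.28, adjusted p = 3.2e-05). The receptor Igf1r was not called (-0.10 ± 0.17, adjusted p = 0.666). Ghr, the growth hormone receptor, rose by 1.48 ± 0.17 (adjusted p = 3.99e-05). Binding proteins of these factors went both ways. Igfbp2 stood at 10.61, 9.84 and 8.998 at e10.5 and 7.79, 7.75 and 7.89 at e15.5 (-2.01 ± 0.29, adjusted p = 0.000346). Igfbp7 stood at 7.04, 6.86 and 6.48 at e10.5 and 8.77, 9.33 and 9.43 at e15.5 (2.38 ± 0.26, adjusted p = 2.72e-05). Neither gene had overlapping stages, and the e10.5 pools were the more spread for Igfbp2. Grb14, an adaptor that dampens insulin receptor signals, rose by 1.42, and Irs4, a substrate of these receptors, fell by 1.34. Of 29 imprinted genes, many of which act on fetal growth, 11 were called lower, 4 of them by 2-fold (13.8%), and 3 were called higher, 1 by 2-fold. The 11 became 6 to 13 under the other scalings. Those that fell include Asb4, with 10.61, 10.33 and 10.33 at e10.5 and 8.72, 8.56 and 8.56 at e15.5 (-1.81 ± 0.24, adjusted p = 0.000166), and Zim1 (-1.23 ± 0.23, adjusted p = 0.00198). Peg10 and Dlk1 did not pass the test (-0.56 ± 0.23 and -0.21 ± 0.22).

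FGF signalling is read out by genes that the pathway switches on in its own target cells. Of 47 ligands, receptors and feedback genes, 15 were called lower, 7 of them by 2-fold (14.9% against 1.06%), and 3 were called higher, all by 2-fold. The falls numbered 4 without replicate 1 at e10.5, without replicate 3 at e15.5 or after centring on the whole table, and the rises 1 without replicate 2 of either stage or replicate 3 at e15.5. Etv4, an Ets factor transcribed in answer to FGF, stood at 8.71, 8.25 and 8.04 at e10.5 and 6.86, 6.87 and 6.53 at e15.5 (-1.58 ± 0.17, adjusted p = 1.87e-05). Etv5, its close relative, stood at 11.25, 10.93 and 10.82 at e10.5 and 9.70, 9.26 and 9.27 at e15.5 (-1.59 ± 0.25, adjusted p = 0.000629). In both genes every e15.5 array was at least 1 log2 unit below every e10.5 array. Dusp4, a phosphatase that restrains the kinase cascade below the receptor, fell by 1.03 (adjusted p = 0.00484), and Flrt3, a membrane protein that joins FGF receptors, by 1.40 (adjusted p = 0.00975). The remaining feedback genes were not uniform: Dusp6 (-0.55 ± 0.36), Spry1 (-0.19 ± 0.11) and Spred1 (-0.27 ± 0.18) were not called, and Spry2 and Il17rd passed only narrowly, at adjusted p = 0.0461 and 0.0445, and lost the call whichever of the 6 arrays was left out, with differences from -1.40 to -0.88 and from -1.44 to -1.29. Among receptors, Fgfr3 stood at 6.97, 6.62 and 6.52 at e10.5 and 8.08, 8.28 and 8.36 at e15.5 (1.54 ± 0.26, adjusted p = 0.0012), whereas Fgfr1 (-0.06 ± 0.15), Fgfr2 (0.63 ± 0.23) and Fgfr4 (0.27 ± 0.17) were not called.

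Among retinoid genes, binding proteins fell and a synthetic enzyme rose. Crabp2, which delivers retinoic acid to its nuclear receptor, stood at 11.76, 11.52 and 11.02 at e10.5 and 8.33, 7.90 and 7.41 at e15.5 (-3.55 ± 0.36, adjusted p = 1.38e-05). Crabp1, another cytosolic carrier, stood at 11.91, 11.41 and 10.87 at e10.5 and 9.39, 9.83 and 10.33 at e15.5 (-1.55 ± 0.37, adjusted p = 0.00989). The stages did not overlap in either, although the gap was narrow for Crabp1. Rarb, a receptor that is itself switched on by retinoic acid, went from 8.39, 8.08 and 8.24 at e10.5 to 7.01, 7.04 and 7.28 at e15.5 (-1.12 ± 0.19, adjusted p = 0.000932). Aldh1a1, which makes retinoic acid, went from 6.90, 6.88 and 6.66 at e10.5 to 9.08, 9.86 and 10.26 at e15.5 (2.92 ± 0.24, adjusted p = 1.88e-06). The other aldehyde dehydrogenases of that step, Aldh1a2 (-0.40 ± 0.34) and Aldh1a3 (-0.41 ± 0.15), were not called. Over the whole retinoid and vitamin list of 29 genes, 3 rose and 7 fell, 2 and 3 of them by 2-fold.

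**Figure D4:**
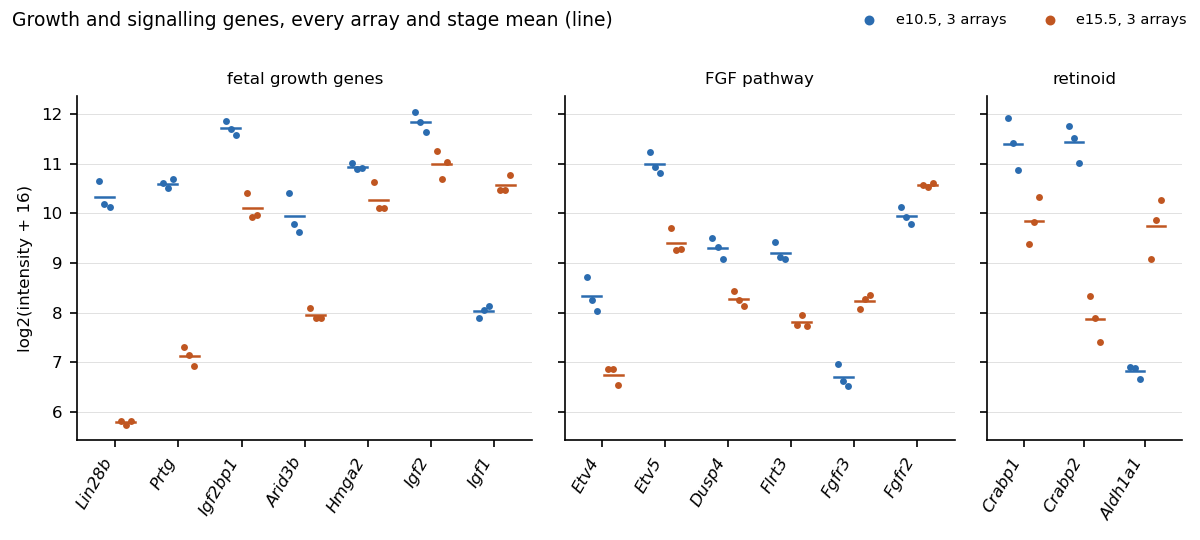
Log2(intensity + 16) on each array at e10.5 (blue) and e15.5 (orange), 3 points per stage with a line at their mean, for fetal growth, FGF pathway and retinoid genes. Lin28b, Prtg and Crabp2 fall by more than 3 log2 units, Igf1, Fgfr3 and Aldh1a1 rise, and Igf2 and Fgfr2 were not called.

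Other signalling families changed in single members. Of 76 Wnt ligands, receptors and inhibitors 0 rose and 3 fell by 2-fold, among them the secreted inhibitor Sfrp5 (-1.30 ± 0.11, adjusted p = 3.55e-06) and Porcn, the enzyme that lipidates Wnt proteins (-1.17 ± 0.12, adjusted p = 1.31e-05). The Wnt target Axin2 was not called (0.53 ± 0.19, adjusted p = 0.0508). Of 80 genes of the TGF-beta, activin and BMP pathway 3 rose and 2 fell by 2-fold. Chrdl1, which binds and blocks BMPs, stood at 7.49, 7.45 and 7.37 at e10.5 and 9.71, 9.37 and 9.53 at e15.5 (2.10 ± 0.17, adjusted p = 1.86e-06). Sostdc1, another BMP antagonist, rose by 2.18, and Acvr1c, an activin receptor, by 1.76. The BMP target genes Id1 (-0.31 ± 0.28), Id2 (-0.37 ± 0.18) and Id3 (-0.60 ± 0.38) did not pass the test. In the Notch pathway, Hes1 (0.47 ± 0.23), Jag1 (0.01 ± 0.16) and Notch1 (0.10 ± 0.13) were not called. Erbb4, a neuregulin receptor, went from 5.83, 5.96 and 6.001 at e10.5 to 7.39, 8.01 and 8.17 at e15.5 (1.92 ± 0.34, adjusted p = 0.00157), and Lrig3, a membrane protein of the same signalling circuit, fell by 1.26. The chemokine gene Cxcl12, whose product guides cell migration, stood at 8.68, 8.26 and 7.90 at e10.5 and 10.25, 10.48 and 10.71 at e15.5 (2.20 ± 0.25, adjusted p = 3.32e-05). Its scavenger receptor Ackr3 stood at 9.26, 9.48 and 8.93 at e10.5 and 6.73, 7.06 and 7.13 at e15.5 (-2.25 ± 0.27, adjusted p = 6.54e-05). The chemokine was higher and the scavenger lower on every e15.5 array. The signalling receptor Cxcr4 was not called (0.43 ± 0.65, adjusted p = 0.64).

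Few genes of cell division were called. Of 46 DNA replication genes 2 were called higher and 0 by 2-fold, and of 51 mitosis and spindle genes 3 and 0. Mki67, present in dividing cells, stood at 10.49, 10.46 and 10.59 at e10.5 and 10.87, 10.58 and 10.66 at e15.5 (0.19 ± 0.12, adjusted p = 0.255). Top2a, which untangles DNA before division, stood at 11.55, 11.50 and 11.47 at e10.5 and 11.65, 11.46 and 11.58 at e15.5 (0.06 ± 0.19, adjusted p = 0.839). The stages overlapped in both. More regulators of cell cycle entry were called: of 27 cyclins, cyclin-dependent kinases and inhibitors 7 rose at least 2-fold (25.9%) and 0 fell. Cdkn2c, an inhibitor of the kinases that pair with D cyclins, stood at 5.88, 5.37 and 5.70 at e10.5 and 7.49, 7.65 and 8.05 at e15.5 (2.08 ± 0.40, adjusted p = 0.00282). Cdk6, one of those kinases, stood at 7.95, 8.04 and 8.32 at e10.5 and 10.03, 10.06 and 10.01 at e15.5 (1.93 ± 0.48, adjusted p = 0.0117). Gas2, a growth arrest protein of the cytoskeleton, rose by 2.06. Cdkn1b (0.16 ± 0.20), Cdkn1c (-0.35 ± 0.15) and Ccnd1 (-0.34 ± 0.39) were not called. Of 60 ribosomal protein genes 1 was called in each direction and 0 by 2-fold. H1f2, a linker histone gene, stood at 10.12, 10.02 and 9.57 at e10.5 and 11.70, 11.86 and 11.95 at e15.5 (1.93 ± 0.19, adjusted p = 1.27e-05).

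Detoxifying enzymes held many of the 2-fold rises. Of 60 glutathione and redox genes 12 rose at least 2-fold (20% against 4.09%) and 1 fell. Gsta3, a glutathione transferase, stood at 8.15, 8.41 and 8.22 at e10.5 and 11.55, 11.66 and 11.80 at e15.5 (3.41 ± 0.29, adjusted p = 2.79e-06). Gstm1, of another class of these enzymes, stood at 9.12, 8.59 and 8.29 at e10.5 and 10.63, 11.08 and 11.46 at e15.5 (2.39 ± 0.29, adjusted p = 7.08e-05), and its relatives Gstm2 and Gstm3 rose by 2.31 and 1.98. Probe sets of such near-identical family members can respond to each other's transcripts. Among cytochrome P450, flavin monooxygenase and conjugating enzymes, 14 of 78 rose (17.9%) and 1 fell at least 2-fold. More members were called lower at any size, 22 against 16 higher, with a median difference of -0.24, and the 22 became 7 to 32 under the other scalings. Fmo1, a flavin monooxygenase, stood at 7.12, 7.33 and 7.34 at e10.5 and 10.61, 11.14 and 11.38 at e15.5 (3.78 ± 0.41, adjusted p = 2.7e-05), and its relatives Fmo2 and Fmo4 rose by 2.39 and 2.05. Ephx1, an epoxide hydrolase, rose by 2.99 and the sulfotransferase gene Sult1c2 by 2.97. The antioxidant response genes Nqo1 (-0.37 ± 0.19), Gclc (0.48 ± 0.26) and Hmox1 (-0.16 ± 0.17) were not called.

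Metallothioneins, small proteins that bind zinc and copper, rose as a pair. Mt1 stood at 9.81, 9.36 and 8.73 at e10.5 and 11.39, 11.60 and 11.80 at e15.5 (2.29 ± 0.41, adjusted p = 0.00154). Mt2 stood at 10.16, 9.69 and 8.93 at e10.5 and 12.04, 12.33 and 12.51 at e15.5 (2.70 ± 0.39, adjusted p = 0.000334). The e10.5 arrays were spread over more than 1 log2 unit, all below the e15.5 arrays. Their promoters, both on chromosome 8, are shown because metal response elements in them are the textbook route of their induction. The element was searched as TGCACNC or TGCGCNC on both strands and is in capitals below. It is a common string, found in 37.3% of the 13292 promoters available for tested genes. It was in 36.1% of those of genes that rose and 43.1% of those of genes that fell at least 2-fold. Mt1 holds 3 copies and Mt2 holds 4, and copies in other promoters were not counted. In both, the first copy begins before the annotated start and the last after it. The part of the element in these rises was not tested. Both sequences are from RefSeq on GRCm38.p6, plus strand, at chr8:94178839-94179138 for Mt1 and chr8:94172368-94172667 for Mt2.
Mt1: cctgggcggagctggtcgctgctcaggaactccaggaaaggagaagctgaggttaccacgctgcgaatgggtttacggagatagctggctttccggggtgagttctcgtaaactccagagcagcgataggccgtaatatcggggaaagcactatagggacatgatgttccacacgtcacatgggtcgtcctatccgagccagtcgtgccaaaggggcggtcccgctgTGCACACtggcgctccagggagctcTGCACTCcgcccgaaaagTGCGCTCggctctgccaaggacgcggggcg
Mt2: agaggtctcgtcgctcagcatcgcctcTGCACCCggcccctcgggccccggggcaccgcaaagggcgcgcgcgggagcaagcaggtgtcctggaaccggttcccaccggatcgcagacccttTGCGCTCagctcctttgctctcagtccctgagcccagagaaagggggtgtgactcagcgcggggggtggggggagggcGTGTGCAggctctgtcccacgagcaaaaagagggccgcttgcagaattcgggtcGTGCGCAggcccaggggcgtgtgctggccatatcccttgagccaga

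Several genes of fuel use were called. Cpt1a, which admits long-chain fatty acids to the mitochondrion, stood at 6.71, 6.15 and 6.30 at e10.5 and 9.65, 9.68 and 9.64 at e15.5 (3.27 ± 0.25, adjusted p = 1.45e-06), and 4 of 25 fatty acid oxidation genes rose at least 2-fold (16%), Acadl (1.56 ± 0.20, adjusted p = 8.76e-05) among them. Of 21 genes listed for glycolysis and its transporters 2 fell and 1 rose 2-fold. The list includes Pigq, which is not a glycolysis gene and was not called. Slc2a3, a glucose carrier, stood at 10.49, 10.23 and 9.77 at e10.5 and 8.33, 8.32 and 8.16 at e15.5 (-1.89 ± 0.23, adjusted p = 6.52e-05). Slc16a3, a lactate carrier, stood at 8.75, 8.87 and 8.42 at e10.5 and 7.37, 7.63 and 7.59 at e15.5 (-1.15 ± 0.15, adjusted p = 9.58e-05). Both carriers were lower on every e15.5 array, and Aldoc, an aldolase, rose by 1.70. Ldha fell by 0.40 (adjusted p = 0.0348), and Hk2 (-0.61 ± 0.38) and Slc2a1 (-0.65 ± 0.29) were not called. Of 78 respiratory chain genes 15 were called higher but 1 by 2-fold, with a median difference of 0.28. One-carbon and amino acid synthesis gained 7 of 29 genes by 2-fold (24.1%) and lost 0. Cbs, which feeds homocysteine into cysteine, stood at 6.98, 7.09 and 6.82 at e10.5 and 8.97, 9.70 and 10.14 at e15.5 (2.64 ± 0.45, adjusted p = 0.00119). Psat1, a step of serine synthesis, stood at 8.99, 8.75 and 8.60 at e10.5 and 10.33, 10.32 and 10.68 at e15.5 (1.67 ± 0.16, adjusted p = 8e-06), and Asns, asparagine synthetase, rose by 1.64. A pair of amino acid carriers of one family went opposite ways. Slc38a3 stood at 6.54, 6.48 and 6.58 at e10.5 and 9.66, 9.73 and 10.08 at e15.5 (3.29 ± 0.26, adjusted p = 1.86e-06). Slc38a5 stood at 12.98, 12.88 and 13.02 at e10.5 and 11.30, 11.33 and 11.25 at e15.5 (-1.66 ± 0.22, adjusted p = 0.000144). Of 21 cholesterol genes 1 was called in each direction and 0 by 2-fold. Arg1, arginase, fell by 2.24, and Ak4, an adenylate kinase of mitochondria, by 2.24.

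A minority of interferon response genes was higher. Of 71 interferon response and JAK-STAT genes 11 rose at least 2-fold (15.49%) and 0 fell that much, while 48 were not called and the median difference was 0.02. The catalytic subunits of the immunoproteasome, which replace constitutive subunits in the same ring, were higher too. Psmb8 stood at 4.98, 5.08 and 4.90 at e10.5 and 7.17, 8.49 and 8.33 at e15.5 (3.01 ± 0.40, adjusted p = 0.000152). Psmb9 stood at 6.33, 6.41 and 6.31 at e10.5 and 8.90, 10.38 and 10.08 at e15.5 (3.44 ± 0.44, adjusted p = 0.000116). Both genes were below the 30th percentile on all e10.5 arrays, and the lowest e15.5 value belongs to replicate 1 in both genes. The third such subunit, Psmb10, rose by 0.82 (adjusted p = 0.00827). Their constitutive counterparts Psmb5 (0.13 ± 0.17), Psmb6 (0.26 ± 0.16) and Psmb7 (0.09 ± 0.13) were not called. Other steps of peptide supply were mixed, with the trimming peptidase Erap1 at 7.81, 7.90 and 7.90 at e10.5 and 9.44, 9.71 and 9.80 at e15.5 (1.78 ± 0.15, adjusted p = 2.25e-06), Tapbp higher by 1.11, and Tap1 (0.36 ± 0.25), Tap2 (0.69 ± 0.26) and B2m (0.35 ± 0.18) not called. The mean of 6 leukocyte markers, none of them called, ran from 6.46 to 6.83 at e10.5 and from 6.47 to 6.62 at e15.5. Of a wider list of 32 leukocyte genes 2 rose (6.25% against 4.09%) and 0 fell by 2-fold. The part of leukocytes in these rises was not tested.

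**Figure D5:**
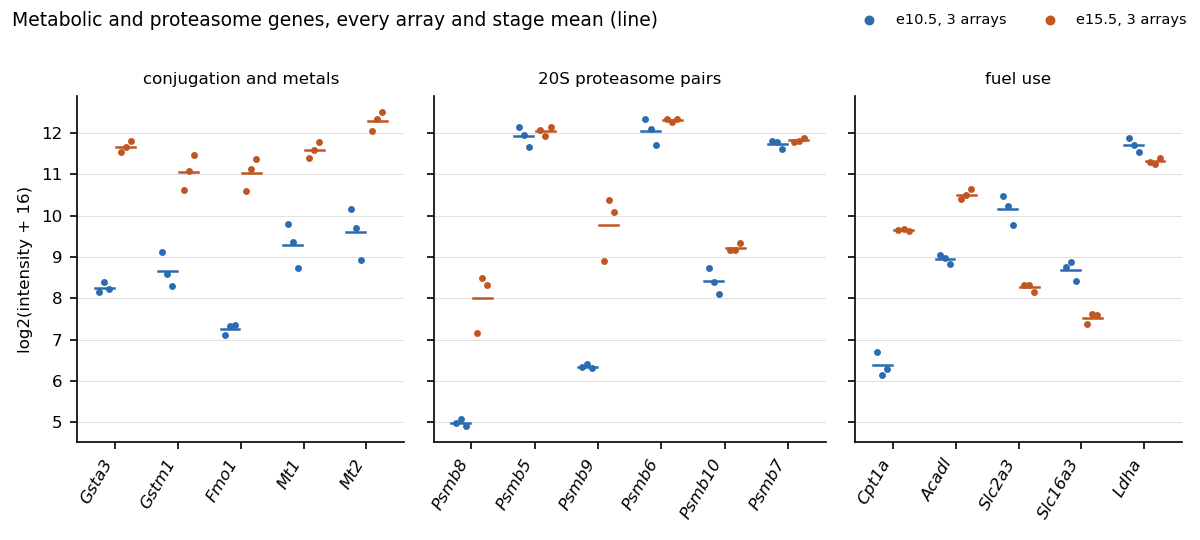
Log2(intensity + 16) on each array at e10.5 (blue) and e15.5 (orange), 3 points per stage with a line at their mean, for conjugating enzymes and metallothioneins, immunoproteasome subunits beside the constitutive subunit each replaces, and genes of fatty acid and glucose use. Psmb8 and Psmb9 rise by about 3 log2 units while Psmb5, Psmb6 and Psmb7 were not called, and Cpt1a rises where Slc2a3 and Slc16a3 fall.

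Cytokine receptors as a list were near the background: of the interleukins, chemokines and their receptors tested 8 rose (5.52%) and 2 fell by 2-fold, and 12 were called higher and 35 lower at any size. Il22ra1, the epithelial interleukin-22 receptor, stood at 6.56, 6.02 and 5.63 at e10.5 and 8.66, 9.25 and 9.28 at e15.5 (2.99 ± 0.29, adjusted p = 9.44e-06). Il10rb, its partner chain, stood at 6.99, 6.86 and 5.99 at e10.5 and 8.55, 8.60 and 8.78 at e15.5 (2.03 ± 0.34, adjusted p = 0.00102), so both chains of that receptor were higher on every e15.5 array. Tlr3, a sensor of double-stranded RNA, rose by 2.24, Nmi, an interferon-induced protein, by 2.44, and Ifi27 by 1.78. The transcription factors Irf1 (0.55 ± 0.26, adjusted p = 0.123) and Stat2 (0.02 ± 0.19, adjusted p = 0.958) were not called, and Irf2 was (1.17 ± 0.17, adjusted p = 0.000305). Ifitm3, a membrane protein that blocks virus entry, stood at 10.89, 10.60 and 10.29 at e10.5 and 12.11, 12.24 and 12.39 at e15.5 (1.66 ± 0.21, adjusted p = 9.13e-05), while its neighbours Ifitm1 (0.15 ± 0.24) and Ifitm2 (0.36 ± 0.17) were not called. The Ifitm3 promoter is shown because its window holds 2 copies of GAAANNGAAA, the interferon-stimulated response element, in capitals. Both copies begin after the annotated start of the gene. That string, on either strand, is in 3.64% of all 13292 promoters. It is in 5.93% of those of genes that rose and 4.38% of those of genes that fell at least 2-fold. The sequence is from RefSeq, GRCm38.p6, minus strand, chr7:141010695-141010994.
Ifitm3: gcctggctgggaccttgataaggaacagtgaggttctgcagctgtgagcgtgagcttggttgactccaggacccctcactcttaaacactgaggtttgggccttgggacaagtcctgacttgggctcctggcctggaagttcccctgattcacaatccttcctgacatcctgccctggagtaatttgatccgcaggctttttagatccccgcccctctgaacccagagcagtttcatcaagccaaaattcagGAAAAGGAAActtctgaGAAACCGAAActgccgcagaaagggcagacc

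Calcium-binding proteins were another gain, with 15 of 68 S100, annexin and calmodulin kinase genes at least 2-fold higher (22.1%) and 0 lower by that much. S100b stood at 6.72, 6.98 and 7.06 at e10.5 and 9.73, 10.53 and 10.89 at e15.5 (3.46 ± 0.40, adjusted p = 4.23e-05). S100a1 stood at 8.02, 7.13 and 7.01 at e10.5 and 9.91, 9.97 and 10.02 at e15.5 (2.58 ± 0.24, adjusted p = 7.46e-06). Anxa2, whose protein joins membranes to actin, went from 8.85, 8.54 and 8.42 at e10.5 to 10.59, 11.05 and 11.25 at e15.5 (2.36 ± 0.19, adjusted p = 1.86e-06). In all 3 genes every e15.5 array was more than 1 log2 unit above every e10.5 array. Several S100 genes lie on chromosome 3, where 63 of 804 tested genes rose at least 2-fold (7.84%), against 2.61% to 5.30% of the other autosomes. It also holds the Gstm genes, Clca3a1, Clca3a2, Selenbp1 and Serpini2. Clca3a1, of a family of secreted chloride channel regulators, stood at 5.43, 5.59 and 5.46 at e10.5 and 9.80, 10.12 and 10.49 at e15.5 (4.64 ± 0.31, adjusted p = 3.69e-07). Clca3a2, its neighbour, stood at 5.95, 6.27 and 6.07 at e10.5 and 9.67, 10.32 and 10.51 at e15.5 (4.07 ± 0.28, adjusted p = 5.3e-07). Secreted inhibitors of the Wfdc group on chromosome 2 rose too. Wfdc10 stood at 7.25, 5.19 and 5.50 at e10.5 and 9.88, 9.72 and 10.42 at e15.5 (4.02 ± 0.54, adjusted p = 0.000166), and Wfdc15b and Wfdc16 rose by 2.82 and 2.54. On the X chromosome 16 of 559 tested genes fell 2-fold (2.86%), Fndc3c1 among them, and 36 rose (6.44%).

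Genes of cell contact changed in both directions. Of 47 claudins and other genes of the tight junction, which seals epithelia, 6 rose and 2 fell by 2-fold. Cldn10 stood at 6.86, 6.99 and 6.93 at e10.5 and 10.70, 10.997 and 11.12 at e15.5 (4.01 ± 0.34, adjusted p = 2.87e-06). Cldn8 and Cldn2 rose by 2.38 and 2.00, while Cldn6 (-0.23 ± 0.18) and Cldn4 (0.04 ± 0.31) were not called. Cldn1 was lower (-1.38 ± 0.36, adjusted p = 0.0141) but lost that call under quantile normalization of the tested genes or of the whole table. Itgb6, an epithelial integrin chain that activates TGF-beta, stood at 5.61, 5.63 and 5.92 at e10.5 and 8.54, 8.75 and 8.88 at e15.5 (3.01 ± 0.23, adjusted p = 1.48e-06), and Itgb4, which anchors cells to laminin, rose by 1.54. Among matrix ligands of integrins, fibronectin fell and a laminin chain rose. Fn1 stood at 11.71, 11.51 and 11.52 at e10.5 and 9.83, 9.80 and 9.90 at e15.5 (-1.74 ± 0.14, adjusted p = 1.86e-06). Lamc1 stood at 10.37, 10.23 and 10.23 at e10.5 and 11.53, 11.47 and 11.54 at e15.5 (1.24 ± 0.14, adjusted p = 3.37e-05). The 3 arrays of each stage were close to each other in both. Tinag, a protein of basement membranes, went from 5.32, 5.44 and 5.25 at e10.5 to 9.68, 9.34 and 9.62 at e15.5 (4.21 ± 0.24, adjusted p = 8.84e-08), and the related Tinagl1 rose by 2.77. Muc1, a mucin of the apical membrane, rose by 2.74.

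Transport, surface receptors and the cell's outer coat gave further rises. Of 329 solute carriers 18 rose and 3 fell by 2-fold (5.47% against 4.09%, and 0.91% against 1.06%), close to the background. Kcnq1, a potassium channel of epithelia, stood at 6.79, 7.22 and 7.46 at e10.5 and 9.01, 9.36 and 9.56 at e15.5 (2.16 ± 0.20, adjusted p = 7.36e-06). Ano1, a chloride channel opened by calcium, stood at 7.27, 7.24 and 7.19 at e10.5 and 8.55, 9.08 and 9.28 at e15.5 (1.74 ± 0.32, adjusted p = 0.00193), and Aqp1, a water channel, rose by 1.46. Carbonic anhydrases, which make bicarbonate, went both ways. Car9 stood at 7.37, 7.09 and 7.18 at e10.5 and 9.12, 9.75 and 9.90 at e15.5 (2.37 ± 0.23, adjusted p = 8.48e-06), while Car4 fell by 1.53. Cckar, the receptor through which cholecystokinin drives enzyme release, stood at 7.01, 7.002 and 6.84 at e10.5 and 11.10, 11.23 and 11.53 at e15.5 (4.34 ± 0.28, adjusted p = 2.41e-07). Adgrg6, an adhesion receptor, stood at 7.47, 7.61 and 7.31 at e10.5 and 10.43, 10.69 and 10.90 at e15.5 (3.21 ± 0.28, adjusted p = 3.81e-06). Agtr2, an angiotensin receptor, stood at 6.27, 6.64 and 6.79 at e10.5 and 8.78, 9.29 and 9.67 at e15.5 (2.68 ± 0.28, adjusted p = 1.57e-05), with means of 6.82 in Sox9-GFP+ cells at postnatal day 23 and 9.43 in Ngn3-GFP+ cells at e15.5. In each of these receptors the stages were more than 1 log2 unit apart. Enzymes that build surface sugars went both ways. Of 66 genes of mucin-type glycosylation and terminal sugars 5 rose and 4 fell by 2-fold, and of 55 genes of proteoglycan synthesis 6 rose and 2 fell. St3gal4, which adds sialic acid, rose by 2.21, and Hs6st2, which adds sulfate to heparan chains, by 2.79, while Hs3st3a1, another heparan sulfotransferase, fell by 1.21. Keratins, the intermediate filaments of epithelia, split, with Krt23 higher by 2.96 and Krt20 lower by 2.10.

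Matrix genes of connective tissue went both ways. Of 95 collagen and fibrillar matrix genes 11 rose and 6 fell by 2-fold (11.6% and 6.32%), and 7 rose without replicate 3 at e15.5. Dcn, a small proteoglycan of mesenchyme, stood at 6.73, 6.16 and 6.38 at e10.5 and 9.08, 9.57 and 10.18 at e15.5 (3.18 ± 0.35, adjusted p = 2.85e-05). Sparcl1, a matrix protein of vessels and mesenchyme, stood at 6.79, 6.54 and 6.85 at e10.5 and 9.40, 9.89 and 10.37 at e15.5 (3.16 ± 0.27, adjusted p = 2.7e-06). Lum, related to Dcn, rose by 2.40. The mesenchymal collagens Col1a1, Col1a2 and Col3a1 lay between 8.72 and 9.85 on all arrays of both stages and were not called, Pdgfra was not called (-0.48 ± 0.22) and Twist1 stayed between 6.65 and 7.05. Of a wider list of 26 mesenchyme and smooth muscle genes 5 rose (19.2%) and 1 fell by 2-fold, with Postn, a secreted matrix protein, higher by 1.44 and Prrx1, a factor of limb mesenchyme, by 1.44. The mean of the 6 mesenchymal markers ran from 8.08 to 8.12 at e10.5 and from 8.40 to 8.87 at e15.5. The part of mesenchymal cells in these rises was not tested. Nepn, a proteoglycan of the same leucine-rich family that marks the embryonic midgut and foregut, gave the largest fall of all genes tested, from 13.75, 13.57 and 13.23 at e10.5 to 7.51, 6.65 and 7.19 at e15.5 (-6.40 ± 0.22, adjusted p = 2.78e-10), so that the stages were more than 5 log2 units apart.

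Genes of axon guidance and neural type went both ways. Of 56 semaphorins, slits, netrins and receptors 2 rose and 2 fell by 2-fold, of 19 ephrins and Eph receptors 1 and 2, of 59 genes of neural adhesion 3 and 1, and of 26 markers of neurons and neural crest 1 and 3. Cntn1, an adhesion protein of axons, stood at 6.37, 6.34 and 6.82 at e10.5 and 8.08, 9.27 and 9.07 at e15.5 (2.30 ± 0.40, adjusted p = 0.00141). Sema3e, a repulsive guidance cue, rose by 1.25, and Epha3 by 1.34. Nrp2, a co-receptor of semaphorins, stood at 10.004, 9.88 and 9.66 at e10.5 and 7.26, 7.71 and 7.78 at e15.5 (-2.27 ± 0.24, adjusted p = 2.24e-05), while Nrp1 was not called (0.17 ± 0.22, adjusted p = 0.567). Robo1, the receptor of slit proteins, stood at 10.46, 10.36 and 10.20 at e10.5 and 8.73, 8.51 and 8.64 at e15.5 (-1.71 ± 0.18, adjusted p = 2.32e-05). The ephrin Efnb2 and the receptor Epha4 fell by 1.33 and 1.502. Rtn1, a reticulon of neuroendocrine cells, went from 11.06, 10.90 and 10.66 at e10.5 to 8.14, 7.96 and 7.87 at e15.5 (-2.88 ± 0.22, adjusted p = 1.1e-06). Fscn1, which bundles actin in cell protrusions, fell by 1.56, and Dpysl5, a protein of growing axons, by 1.37. Nefl, a neurofilament subunit, had a difference of -2.10 and lost its call without any of 5 of the 6 arrays, with an adjusted p of up to 0.074.

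Some of the largest falls were receptors and signalling proteins with no obvious list. Cysltr2, a receptor for cysteinyl leukotrienes, stood at 10.58, 10.11 and 10.70 at e10.5 and 5.52, 5.29 and 4.997 at e15.5 (-5.19 ± 0.42, adjusted p = 1.86e-06), below the 30th percentile on every e15.5 array. Gnat3, the G protein of taste cells, stood at 8.52, 7.77 and 8.31 at e10.5 and 5.08, 5.41 and 5.32 at e15.5 (-2.93 ± 0.24, adjusted p = 2.12e-06). Adcy8, an adenylate cyclase that answers calcium, stood at 8.76, 8.97 and 8.74 at e10.5 and 6.70, 6.94 and 6.51 at e15.5 (-2.11 ± 0.17, adjusted p = 1.54e-06). None of these stages overlapped, and Pth1r, the receptor of parathyroid hormone, fell by 1.53. Fndc3c1, a fibronectin-domain gene on the X chromosome, stood at 11.11, 11.04 and 10.91 at e10.5 and 5.70, 5.12 and 5.85 at e15.5 (-5.47 ± 0.18, adjusted p = 2.78e-10). B3gnt5, which starts the lacto-series of glycolipids, went from 9.03, 9.22 and 8.73 at e10.5 to 6.20, 6.13 and 6.14 at e15.5 (-2.84 ± 0.24, adjusted p = 2.25e-06). Sptssb, a subunit of the enzyme that starts sphingolipid synthesis, stood at 8.50, 8.36 and 7.41 at e10.5 and 5.55, 5.59 and 5.58 at e15.5 (-2.51 ± 0.29, adjusted p = 3.86e-05). Its 3 e15.5 values were nearly equal and below the 30th percentile.

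Several transcripts of liver fell. Of 24 liver secretory genes 9 fell at least 2-fold (37.5% against 1.06%) and 1 rose. Without the 3 arrays whose Hbb-y lay above log2 9, 5 fell. Fgg, a fibrinogen chain, stood at 10.21, 10.12 and 9.68 at e10.5 and 6.13, 6.32 and 6.595 at e15.5 (-3.65 ± 0.26, adjusted p = 6.77e-07). Apoa1, an apolipoprotein, stood at 12.13, 11.37 and 11.10 at e10.5 and 8.004, 7.85 and 8.67 at e15.5 (-3.35 ± 0.39, adjusted p = 4.72e-05). The stages were far apart in both. Afp, the fetal counterpart of albumin, was lower with a wide error (-2.28 ± 0.66, adjusted p = 0.0234), and it lost the call without any of 5 of the 6 arrays, with an adjusted p of up to 0.0848. Alb varied within both stages, at 8.32, 7.96 and 8.91 at e10.5 and 6.37, 7.56 and 8.996 at e15.5, and was not called (-0.76 ± 1.00, adjusted p = 0.586), and Ttr was not called either (-0.27 ± 0.12, adjusted p = 0.111). Of 29 gut and stomach genes 14 were called lower but 2 by 2-fold. Cdx2, a regulator of intestine, stood at 7.86, 7.89 and 7.86 at e10.5 and 6.85, 7.05 and 6.95 at e15.5 (-0.92 ± 0.16, adjusted p = 0.00161).

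Ductal markers rose alongside the acinar genes. Of 30 ductal markers 9 rose at least 2-fold (30%) and 1 fell. Dcdc2a, a doublecortin-domain protein of cilia, stood at 6.003, 5.64 and 5.80 at e10.5 and 10.62, 10.84 and 10.85 at e15.5 (4.95 ± 0.20, adjusted p = 1.65e-09). A few genes known from cystic kidney and liver disease, singled out after their values were seen, were higher. Cys1, a protein of cilia, stood at 7.67, 7.81 and 7.92 at e10.5 and 9.95, 9.98 and 9.99 at e15.5 (2.17 ± 0.21, adjusted p = 8.83e-06). Bicc1, an RNA-binding protein, stood at 9.68, 9.58 and 9.33 at e10.5 and 11.47, 11.72 and 11.83 at e15.5 (2.14 ± 0.29, adjusted p = 0.000166), and Pkhd1, a membrane protein of cilia, rose by 1.93. Of 114 genes of ciliary transport and the basal body 1 rose and 0 fell by 2-fold, and at any size 5 were called higher and 14 lower. Endocrine genes went both ways: of 28 endocrine regulators 4 rose and 1 fell by 2-fold, and of 56 peptide hormones and neuropeptides 8 rose and 1 fell by 2-fold while 9 were called higher and 16 lower at any size. Ins2 rose by 3.39 ± 0.24 and Sst by 2.53 ± 0.46, and Scgn, a calcium sensor of endocrine cells, stood at 8.05, 7.97 and 7.91 at e10.5 and 10.88, 11.59 and 11.33 at e15.5 (3.29 ± 0.23, adjusted p = 5.38e-07). Means in Ngn3-GFP+ cells of the same day were 13.07 for Ins2, 12.75 for Sst and 12.20 for Scgn.

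Immediate early genes, which are transcribed within minutes of a stimulus, were higher at e15.5 in 21 of 38 cases, 18 of them by 2-fold (47.4%), with 0 lower. Atf3 stood at 5.52, 5.42 and 5.61 at e10.5 and 9.14, 10.65 and 10.63 at e15.5 (4.62 ± 0.79, adjusted p = 0.00111). Fos stood at 6.66, 7.82 and 7.89 at e10.5 and 10.22, 11.15 and 10.99 at e15.5 (3.33 ± 0.31, adjusted p = 6.29e-06). Junb stood at 5.96, 5.75 and 5.72 at e10.5 and 8.02, 9.11 and 9.08 at e15.5 (2.93 ± 0.23, adjusted p = 1.48e-06). Replicate 1 was the lowest e15.5 array in each, and still above every e10.5 array. The part of dissociation and sorting in these rises was not tested. Nupr1, a stress-induced nuclear protein of the pancreas, stood at 7.84, 7.75 and 7.77 at e10.5 and 11.25, 11.86 and 12.18 at e15.5 (3.98 ± 0.24, adjusted p = 1.26e-07). Egr2 stood at 6.85, 7.88 and 6.72 at e10.5 and 9.78, 10.64 and 10.37 at e15.5 (3.11 ± 0.30, adjusted p = 9.82e-06). Its promoter is shown because it holds the serum response element, the classical switch of this group, in capitals. The element, 2 C, 6 A or T and 2 G, was found on either strand in 1.63% of all 13292 promoters and in 3 of the 32 available for the list. It was in 3.15% of those of genes that rose and 3.65% of those of genes that fell at least 2-fold. The sequence is 1 of 5 starts that RefSeq gives for the gene, GRCm38.p6, plus strand, chr10:67537316-67537615.
Egr2: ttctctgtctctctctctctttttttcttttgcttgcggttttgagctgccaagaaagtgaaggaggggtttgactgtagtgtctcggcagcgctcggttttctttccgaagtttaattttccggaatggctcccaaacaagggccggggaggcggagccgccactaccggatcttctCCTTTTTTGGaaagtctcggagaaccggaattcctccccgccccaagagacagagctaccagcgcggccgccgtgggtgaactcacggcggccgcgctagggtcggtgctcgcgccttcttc

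Other promoter strings were searched in the same way. They were planned, while the NFI, metal response and interferon-stimulated strings described above were added to the planned list. The cyclic AMP element TGACGTCA was in 3.05% of all promoters, 2.04% of those of genes that rose and 5.11% of those of genes that fell at least 2-fold. The AP-1 element, TGAGTCA or TGACTCA, was in 4.99%, 6.30% and 2.19%. The TATA box TATAAA was in 11.02%, 14.3% and 14.6%, and in 6 of 19 promoters of acinar enzyme genes. CCAAT was in 41.5%, 40.2% and 40.9%. A PTF1 pair, CACCTG followed within 3 to 18 bases by TTTCCC, was rare, in 38 of 13292 promoters, 5 of the 540 of genes that rose, 0 of the 137 of genes that fell and 1 of the 19 of acinar enzyme genes.

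Some genes were higher in Sox9-GFP+ cells at e15.5 than at both other stages. They were picked after their values were seen, so they are a description. Serpina6, which encodes the corticosteroid-binding globulin, stood at 9.72, 9.23 and 9.75 at e10.5 and 12.77, 12.96 and 13.06 at e15.5 (3.37 ± 0.35, adjusted p = 1.89e-05), and its mean was 5.24 at postnatal day 23 and 12.24 in Ngn3-GFP+ cells at e15.5. Tgm7, a transglutaminase, stood at 6.13, 6.48 and 6.50 at e10.5 and 11.29, 10.71 and 10.36 at e15.5 (4.42 ± 0.44, adjusted p = 1.23e-05), with 6.56 at postnatal day 23 and 10.60 in Ngn3-GFP+ cells. Cnmd, a membrane glycoprotein best known from cartilage, stood at 7.52, 7.95 and 8.13 at e10.5 and 10.94, 11.96 and 12.39 at e15.5 (3.90 ± 0.28, adjusted p = 7.14e-07), with 7.91 at postnatal day 23. Its mean in Ngn3-GFP+ cells was 8.29. Cym, which encodes the milk-clotting protease chymosin, stood at 7.54, 7.90 and 8.18 at e10.5 and 11.10, 11.49 and 11.54 at e15.5 (3.50 ± 0.41, adjusted p = 4.41e-05), with 7.997 at postnatal day 23 and 9.07 in Ngn3-GFP+ cells. Ctxn2, a small membrane protein, stood at 7.76, 6.32 and 6.43 at e10.5 and 10.41, 11.35 and 11.09 at e15.5 (4.11 ± 0.37, adjusted p = 4.47e-06), with 6.04 at that age. The differences between postnatal day 23 and e15.5 share the e15.5 arrays and are given as means only.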

How the data were processed

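RNA of sorted cells was amplified from its poly(A)+ fraction and hybridised to 15 arrays in 5 groups of 3, per the labels' protocols. The deposited table holds linear intensity values for 35557 probe sets, which the authors obtained with the PLIER method of the Affymetrix software Expression Console 1.1, according to the submitters' processing notes. Any scaling between arrays was not given in the sources used here, and array medians ran from 165.5 to 211.7, and values were not rescaled. The offset of 16 shrinks differences of dim genes.

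Of the probe sets, 21789 map to 1 gene, 1621 to several and 12147 to none in the platform annotation. Only the first kind was used, and 21698 of them matched RefSeq by gene ID. For each of 19938 genes the probe set with the highest mean was kept, and 16883 genes above the 30th percentile of the table (intensity 97.8) on at least 3 arrays were tested. Log2(intensity + 16) was fitted over all 15 arrays with 5 group means in limma 3.58.1 (R 4.3.3), with Benjamini-Hochberg adjustment, and tables were made with pandas 2.3.3. On simulated data with 16883 genes, 40.3%, 73.1% and 97% of genes changed 1.5-, 2- and 4-fold were called, with 7 false calls. Only 67, 67 and 66 genes were changed there, with independent noise and no shift shared by the genes of an array. These rates therefore need not hold for the real arrays. The number of arrays limits the precision.

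Named genes are Sox9 and Neurog3, the 20 largest rises and falls, and up to 6 called members of each of 111 lists, with other members where they complete a pathway. The largest rises and falls were taken from called genes whose stages did not overlap and whose higher stage mean lay above the table median. The genes, lists and tests were chosen with earlier results of these data known. Alternatives were the offset, scaling, filter, probe set choice, samples, variance model, replicate block and single arrays.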

Additional observations from a re-analysis of the deposited data

How the results depend on the processing

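Among the 573 genes named by rule, 0 that were called changed direction under any of 19 other settings. Nearly all had been chosen by the size of their change on these same arrays, so this could be foreseen and is no test. In settings that kept at least 2 arrays per stage, 1 to 139 of them lost their call. The filter at the table median kept 526 of the 573. The genes called at any size numbered 2970 under quantile normalization of the tested genes, 2725 under that of the whole table, 7149 in a fit of the 6 arrays alone, 425 when limma tested against a 1.5-fold change, and 2673 without the 3 arrays with Hbb-y above log2 9, which leaves a single e10.5 array and 2 of e15.5, the lone array being assumed to vary like the other groups. The causes were not tested. Leaving out 1 array at a time gave 1840 to 5952 called genes, 564 to 775 risen and 158 to 190 fallen at least 2-fold. The share of called genes that rose was 28.1% after centring on tested genes, 73.7% after centring on the whole table, 62.7% under whole-table quantile normalization, 58.2% with the filter at the table median and 37.3% to 60.7% without single arrays. Both whole-table scalings were added after the data were seen. With an offset of 64 the risen genes numbered 524 and the fallen 121, and 9 P450 and conjugating enzyme genes and 11 solute carriers rose 2-fold. Arrays of the same replicate number deviated from their stage means with correlations of -0.15, -0.16 and -0.21. Deviations of 3 arrays from their mean sum to 0, so these values cannot settle whether replicate numbers pair the samples. With the replicate block 3695 genes were called, 681 risen and 176 fallen at least 2-fold. Signal limits dim genes: with the filter at the table median, 674 rose and 161 fell at least 2-fold.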
